A study of Mus musculus with 6 samples.

Results

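The genes described here are 10 antagonists and feedback inhibitors of Wnt signalling, chosen by name from the 54146 genes of the count tables. Of these, 5 encode secreted proteins (Sfrp1, Sfrp2, Frzb, Wif1 and Dkk3), 4 encode membrane proteins (Kremen1, Apcdd1, Znrf3 and Rnf43) and 1 encodes a cytoplasmic protein (Nkd1). All 10 symbols matched a single Ensembl gene. They were measured by RNA sequencing in mouse embryonic cortex. Plasmids were electroporated in utero at E14.5, and cells with green fluorescent protein (GFP) were sorted 24 hours later, at E15.5. In the 3 Mir libraries a U6 promoter drove a hairpin precursor of the microRNA miR-3607-5p, and in the 3 Scr libraries the same promoter drove the vector kit's scrambled hairpin. Both groups also carried a GFP plasmid under the CAG promoter, and both were otherwise wild-type. Each library pooled the sorted cells of 2 embryos. The strain is ICR by the labels' protocol but C57BL/6 by their characteristics. They do not say whether equally numbered pools shared a litter or a day.

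Wnt proteins bind Frizzled receptors and LRP co-receptors at the cell surface, which stabilises β-catenin and lets it act with TCF/LEF factors on target genes. Antagonists act at several levels: secreted Frizzled-related proteins and WIF1 bind Wnt ligands, KREMEN1 works with Dickkopf proteins on the LRP co-receptors, ZNRF3 and RNF43 are ubiquitin ligases that remove Frizzled receptors from the membrane, and NKD1 binds Dishevelled inside the cell. APCDD1, NKD1, ZNRF3 and RNF43 are themselves induced by Wnt signalling in many tissues and so form negative feedback loops. In the embryonic cortex Sfrp1 is a well-known gene of ventricular zone progenitors. The title of the series names control of the Wnt/β-catenin pathway as its subject, so the comparison of Mir with Scr asks what the hairpin does to these inhibitors.

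The strand expressed from the hairpin is shown first because a microRNA acts on transcripts that hold a match to its seed, bases 2 to 8. It is the 22 bases that follow the loop of the oligonucleotide given in the labels, written as DNA, with the seed in capitals. Below it stand the stretches of the 3′ UTRs of the antagonists, other than Apcdd1, that hold a match to bases 2 to 7 of the strand (CACATG) or a longer one, with the matching bases in capitals.
Hairpin strand: gCATGTGAtgaagcaaatcagt
Kremen1, match to bases 2 to 8: gggatcctccaTCACATGtaccagcctgg
Nkd1, match to bases 2 to 7: tcatgtagaagaCACATGgaaacacagaag
Frzb, match to bases 2 to 7: ccctgaaatttaCACATGtggtagtagtag
Rnf43, match to bases 2 to 7: catccaggcaccCACATGggtatttatatc

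Of the 10 antagonists, 1 held a match of 7 bases (TCACATG for bases 2 to 8, or else CACATGA for bases 2 to 7 with an A opposite base 1), and none held the 8 bases TCACATGA. That gene is Kremen1, with the match starting at base 145 of a 3′ UTR of 3401 bases. Among 12747 tested genes with a 3′ UTR in GENCODE M21, 17.3% held such a match. The shorter match CACATG was present in 5 of the 10 antagonists (once each in Kremen1, Nkd1, Frzb and Rnf43 and at 2 places in Apcdd1) and in 35.3% of the tested genes. The 3′ UTRs of Sfrp1 (3144 bases), Sfrp2 (894 bases), Dkk3 (2194 bases), Znrf3 (3400 bases) and Wif1 (771 bases) held neither. The median 3′ UTR was 1830 bases in the 10 antagonists and 1017 bases in the tested genes. A longer 3′ UTR has more places for a match, and these shares were not matched for length. A match describes these letters and does not show binding.

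The core letters bound by TCF/LEF factors (CTTTGAA with its variants CTTTGAT and then CTTTGTA and also CTTTGTT, searched on both strands) were sought in RefSeq promoter windows on GRCm38.p6, from 250 bases before to 50 after a start site. Windows were present for 5 of the antagonists (Sfrp2, Frzb, Wif1, Nkd1 and Rnf43, the last with 2 windows). None of these 6 windows held the core, which 16.9% of all 32851 windows held. The Nkd1 window starts at base 88527383, inside a gene annotated from 88521354, so the annotated start of Nkd1 was not searched. The second Rnf43 window starts at base 87699647, inside a gene annotated from 87662722.

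Total counts in genes ran from 12724511 to 16684038 per library. Libraries of a group differed by more than sampling noise, with a chi-square per degree of freedom of 8.01 to 28.0, so each was kept as a separate replicate. All 20 radial glia markers and all 14 intermediate progenitor markers were detected in each library, as were 18 of 18 cortical neuron markers. Markers of other cell types were unevenly spread: the summed level of 14 endothelial markers was 65.0 to 379 CPM (read counts in a gene scaled to the library's normalized total in genes) in Scr and 44.5 to 119 CPM in Mir. Summed inhibitory neuron and ganglionic eminence markers were at 412 to 1574 CPM in Scr and 218 to 555 CPM in Mir, with Scr replicate 2 highest for both lists. Pericyte and meningeal fibroblast markers summed to 33.0 to 155 CPM in Scr and 3.37 to 233 CPM in Mir. Erythroid markers were at 243 to 861 CPM in Scr and 1.72 to 578 CPM in Mir. Microglia markers were at 20.2 to 82.7 CPM in Scr and 10.1 to 56.3 CPM in Mir. Summed cortical neuron markers were at 6472 to 8618 CPM in Scr and 5244 to 6041 CPM in Mir, without overlap. The gene tables hold no entry for miR-3607, so its excess was not analysed here.

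Of the 10 genes, the 3 tested secreted antagonists had higher mean levels in Mir. The 4 tested membrane and cytoplasmic inhibitors were split, 2 higher and 2 lower. Secreted antagonists outside the 10 (Sfrp4, Dkk2, Draxin and Igfbp4) had lower means in Mir. No member passed edgeR's test over all genes. The low-count filter was passed by 7 of the 10: Sfrp1, Sfrp2, Dkk3, Kremen1, Apcdd1, Znrf3 and Nkd1. By edgeR's quasi-likelihood test at a Benjamini-Hochberg adjusted p under 0.05, 0 of these were called higher and 0 lower, where 0% of the 16897 genes tested were called higher and 0.00592% lower. At an unadjusted p under 0.05, edgeR gave 4 of the 7 as higher (Sfrp1, Sfrp2, Dkk3 and Znrf3), where 6.57% of all genes tested were, and 0 as lower, where 7.93% were. The 3 Mir values lay all above the 3 Scr values for Sfrp1, Dkk3 and Znrf3, as they did for 9.72% of genes tested, and for no member did they lie all below, as 10.3% of genes did. DESeq2 called 1 member higher, Sfrp1, and 0 lower, against 1.44% and 2.2% of the genes it tested, and limma-voom called 0. The median log2 fold change of the 7 genes was 0.50, beside -0.01 over all genes tested. In bulk libraries, fewer cells of a type and less RNA per cell cannot be told apart.

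**Figure D1:**
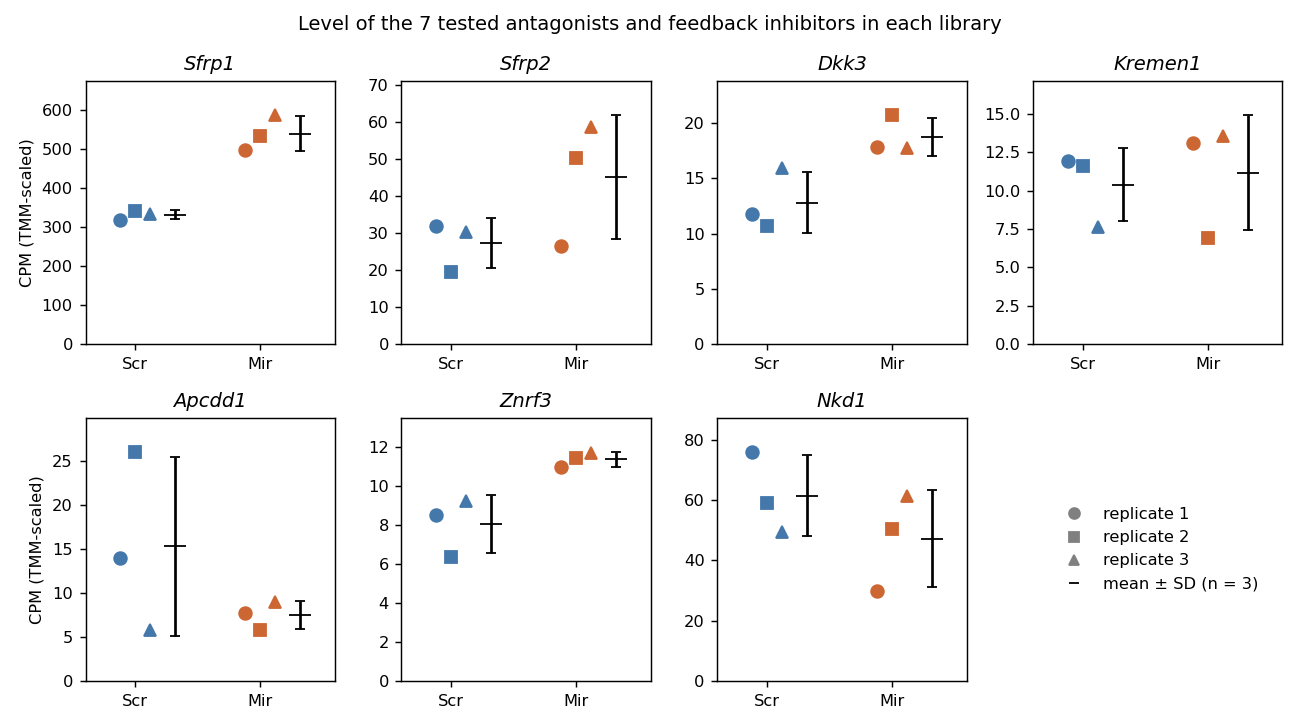
CPM of the 7 tested antagonists and feedback inhibitors in each Scr (blue) and Mir (orange) library, with axes starting at 0; symbols mark the replicate number and black bars the mean ± SD of 3 libraries. The 3 Mir points of Sfrp1, Dkk3 and Znrf3 lie above all Scr points, whereas Apcdd1 is spread from 5.84 to 26.1 CPM within Scr.

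Sfrp1 (ENSMUSG00000031548; GRCm38 chromosome 8, 23411502 to 23449632, plus strand) encodes a secreted protein with a Frizzled-like domain. It was at 319, 342 and 334 CPM in Scr replicates 1, 2 and 3 and at 498, 533 and 586 CPM in Mir replicates 1, 2 and 3. The lowest Mir library was 1.46 times the highest Scr library, and the Scr libraries lay close together. Mean levels were 332 ± 11.4 CPM for Scr against 539 ± 44.6 CPM for Mir (SD, n = 3 each). The log2 fold change, Mir over Scr, was 0.70 ± 0.09 (SE), with a 95% interval of 0.50 to 0.90. Its p was the 4th smallest of all genes tested, and the edgeR adjusted p was 0.159. The call depended on the method: the adjusted p was 2.43e-07 by DESeq2 and 0.0268 by edgeR with no filter on low counts, but 0.141 by limma-voom. With 1 library left out at a time, the fold change stayed between 0.62 and 0.76, and edgeR did not call it in any of these 6 fits (smallest adjusted p 0.131).

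Sfrp2 (ENSMUSG00000027996; chromosome 3, 83766321 to 83774316, plus strand) encodes a close relative of SFRP1. It was at 31.9, 19.5 and 30.2 CPM in Scr and at 26.4, 50.2 and 58.6 CPM in Mir, in the order of the replicate numbers. Mir replicates 2 and 3 were above every Scr library, but Mir replicate 1 lay inside the Scr range, so the groups overlapped. The log2 fold change was 0.73 ± 0.31 with an edgeR adjusted p of 0.340, and leaving out 1 library at a time gave 0.47 (Mir replicate 3) to 1.00 (Mir replicate 1). Leaving out Scr replicate 2 and Mir replicate 3 together, an alternative chosen after seeing the data, gave 0.30. An annotated antisense gene, Gm26771, shares 347 exonic bases with Sfrp2. Its counts were 16.1 to 23.1% of those of Sfrp2 in each library. The library kit does not mark the strand, so reads within the shared bases cannot be told apart, whereas the rest of the 2153 exonic bases of Sfrp2 is not shared with Gm26771.

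Dkk3 (ENSMUSG00000030772; chromosome 7, 112116017 to 112159057, minus strand) encodes the divergent member of the Dickkopf family, whose action on Wnt signals varies between cell types. It was at 11.8, 10.7 and 15.9 CPM in Scr and at 17.8, 20.7 and 17.7 CPM in Mir. The groups did not overlap, though the lowest Mir library was only 1.11 times the highest Scr library. Its log2 fold change was 0.55 ± 0.19, with a 95% interval of 0.10 to 0.99 and an edgeR adjusted p of 0.280. With the endothelial marker level of each library as a covariate it was 0.31.

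Frzb and Wif1 were close to the limit of detection and were not tested. Frzb (ENSMUSG00000027004; chromosome 2, 80411970 to 80447625, minus strand), another secreted Frizzled-related protein, had 1, 15 and 7 reads in Scr and 8, 15 and 1 in Mir, with the same range in both groups. Wif1 (ENSMUSG00000020218; chromosome 10, 121033960 to 121100650, plus strand) had 1 read over the 3 Scr libraries and 2 over the 3 Mir libraries. A count of 0 allows up to 3 reads, or 0.181 to 0.234 CPM depending on the library, for counting error only, so that a difference in Wif1 was not detectable at this depth.

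Among the membrane proteins, Znrf3 and Kremen1 are neighbours on chromosome 11, 14.8 kb apart and both on the minus strand, and they differed in how their libraries fell. Znrf3 (ENSMUSG00000041961; 5276324 to 5444847) was at 8.49, 6.37 and 9.21 CPM in Scr and at 10.9, 11.4 and 11.7 CPM in Mir. Its Mir libraries were close together and all above Scr, the lowest at 1.19 times the highest Scr library. The log2 fold change was 0.50 ± 0.20, with a 95% interval of 0.03 to 0.96 and an edgeR adjusted p of 0.321. Leaving out 1 library at a time gave 0.36 (Scr replicate 2) to 0.62 (Scr replicate 3), and the endothelial covariate gave 0.36 ± 0.25. Kremen1 (ENSMUSG00000020393; 5191552 to 5261558), the gene with the 7-base seed match, was at 11.9, 11.6 and 7.65 CPM in Scr and at 13.1, 6.90 and 13.6 CPM in Mir. Mir replicate 2 was the lowest of the 6 libraries and the other Mir libraries were the highest, so that the groups overlapped. The log2 fold change was 0.11 ± 0.31 (edgeR adjusted p 0.904), with a 95% interval of -0.60 to 0.82, and the estimate was below 0 when Scr replicate 3 (-0.063), Mir replicate 3 (-0.064) or Mir replicate 1 (-0.0075) was left out. It was 0.37 without Mir replicate 2 and 0.50 ± 0.36 with the endothelial covariate. Rnf43 (ENSMUSG00000034177; 87662722 to 87735539 on the same chromosome), the partner ligase of ZNRF3, was not tested: it had 0, 9 and 0 reads in Scr and 1, 6 and 3 in Mir.

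Apcdd1 (ENSMUSG00000071847; chromosome 18, 62922231 to 62961179, plus strand) encodes a membrane glycoprotein that binds Wnt and LRP5. It was at 14.0, 26.1 and 5.84 CPM in Scr and at 7.76, 5.81 and 8.96 CPM in Mir. The 6 libraries ranged over 4.48-fold, and Scr enclosed all Mir libraries but replicate 2, which lay just below Scr replicate 3. The log2 fold change was -1.02 ± 0.49 (edgeR adjusted p 0.387), with a 95% interval of -2.16 to 0.11, and it was -0.40 without Scr replicate 2 and -1.41 without Scr replicate 3. Apcdd1 is also expressed by brain endothelial cells. Scr replicate 2, Scr replicate 1 and Mir replicate 3 were the highest libraries, in that order, for Apcdd1 and for the endothelial markers, while the order of the other 3 libraries differed. The summed endothelial level was 179, 379 and 65.0 CPM in Scr replicates 1, 2 and 3 and 44.5, 45.1 and 119 CPM in Mir replicates 1, 2 and 3. All 14 endothelial markers had lower means in Mir, and 8 and 7 of them, the defining marker Cldn5 included, had no reads in Mir replicates 1 and 2. With the mean endothelial marker level as a covariate the log2 fold change of Apcdd1 was 0.17 ± 0.44 (edgeR adjusted p 0.955). Apcdd1 had 122 and 91 reads in Mir replicates 1 and 2, where Cldn5 was at 0 reads. As a percentage of the endothelial marker sum Apcdd1 was at 7.81, 6.88 and 8.99% in Scr and at 17.5, 12.9 and 7.52% in Mir. Slc2a1, the most abundant marker of that sum, was at 52.7, 91.1 and 42.3 CPM in Scr and at 38.5, 37.4 and 60.2 CPM in Mir. It made up most of the sum in Scr replicate 3 and in all Mir replicates, though only narrowly in Mir replicate 3 (60.2 of 119 CPM). The percentages in those libraries therefore largely set Apcdd1 against Slc2a1. The part of endothelial RNA in its fold change was not tested beyond these values.

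Nkd1 (ENSMUSG00000031661; chromosome 8, 88521354 to 88594884, plus strand), the cytoplasmic feedback inhibitor, was at 75.9, 59.1 and 49.3 CPM in Scr and at 29.7, 50.5 and 61.5 CPM in Mir. Mir replicate 1 stood below the other 5 libraries, and Mir replicates 2 and 3 lay inside the Scr range. For Nkd1 the log2 fold change was -0.38 ± 0.27 (edgeR adjusted p 0.550), with a 95% interval of -1.01 to 0.25. Leaving out Mir replicate 1 gave -0.13, leaving out Scr replicate 1 gave -0.20 and leaving out Mir replicate 3 gave -0.63. With the endothelial covariate the value was -0.02.

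**Figure D2:**
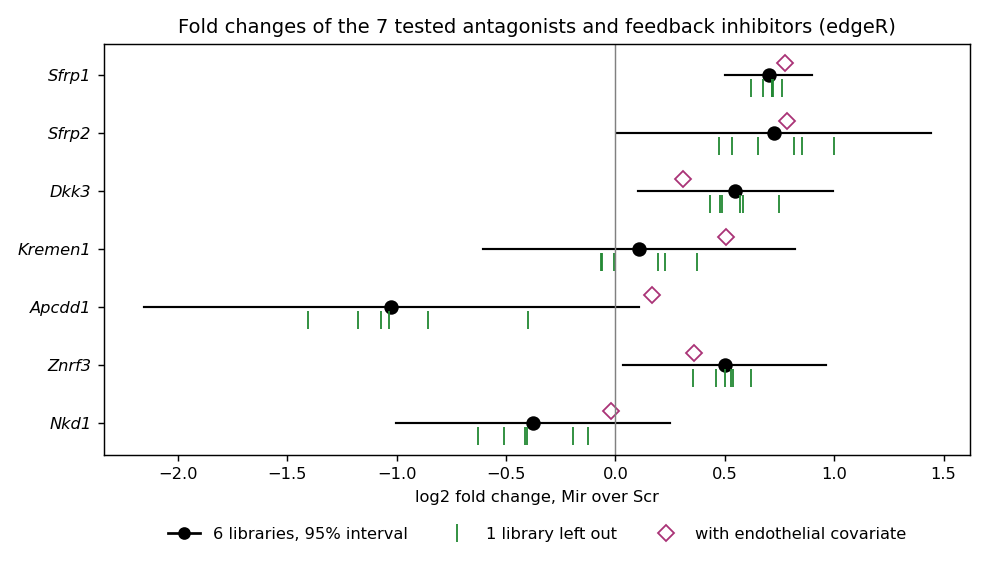
Log2 fold changes, Mir over Scr, of the 7 tested antagonists and feedback inhibitors: black points and lines are the edgeR fit of 6 libraries with its 95% interval, green ticks the fits with 1 library left out, and open diamonds the fit with the endothelial covariate. Sfrp1 has the narrowest interval (0.50 to 0.90), and the diamond of Apcdd1 lies at 0.17, across zero from its point at -1.02.

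Levels can be compared between genes only per length, here as CPM per kilobase of annotated exons (RPKM). On that scale Sfrp1 led in both groups, at 75.9 ± 2.60 RPKM in Scr and 123.3 ± 10.2 RPKM in Mir (SD, n = 3 each), and its mean over the 6 libraries was above that of 96.9% of the genes tested. In Scr it was followed by Nkd1 (13.5 ± 2.95 RPKM) and Sfrp2 (12.7 ± 3.12 RPKM), whose ranges overlapped, and in Mir by Sfrp2 (20.9 ± 7.75 RPKM) and Nkd1 (10.4 ± 3.54 RPKM), whose ranges also overlapped. Dkk3 came next in both groups, at 3.81 ± 0.815 RPKM in Scr and 5.58 ± 0.505 RPKM in Mir, apart from its neighbours on either side. Kremen1, Apcdd1 and Znrf3 could not be ordered beyond their spread in Scr, at means of 1.02 to 1.34 RPKM, whereas in Mir the range of Apcdd1 (mean 0.583 RPKM) lay below those of the other two. Frzb, Rnf43 and Wif1 were at 0.163 RPKM or lower on average in Scr and at 0.158 RPKM or lower in Mir. Of the summed RPKM of the 10 genes, Sfrp1 alone made up 65.4 to 80.3% in each library, and of the 5 secreted Frizzled-related genes (Sfrp1, Sfrp2, Sfrp4, Sfrp5 and Frzb) it made up 81.9 to 89.5%.

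Sfrp1 and Sfrp2 are both genes of radial glia, the apical progenitors of the cortex, and the radial glia markers themselves were unevenly spread. The summed level of 20 such markers, led by Fabp7, Lhx2 and Vim, was 2918, 2179 and 3077 CPM in Scr replicates 1, 2 and 3 and 2985, 3615 and 4052 CPM in Mir replicates 1, 2 and 3. Of the 20, 19 had a higher mean in Mir, and edgeR called none. Mir replicates 3 and 2 were the highest libraries for these markers, for Sfrp1 and for Sfrp2, in that order, and Scr replicate 2 was the lowest for the markers and for Sfrp2. Mir replicate 1 had a marker sum below that of Scr replicate 3, yet its Sfrp1 level was 498 CPM against 334 CPM. Expressed as a percentage of the marker sum, a measure chosen after the values were seen, Sfrp1 was at 10.95, 15.7 and 10.9% in Scr and at 16.7, 14.7 and 14.47% in Mir. On this measure Scr replicate 2 lay within the Mir range and the groups overlapped. Sfrp2 was at 1.09, 0.897 and 0.982% in Scr and at 0.884, 1.39 and 1.45% in Mir, with Mir replicate 1 the lowest. The part of the progenitor share in either gene's fold change was not tested.

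**Figure D3:**
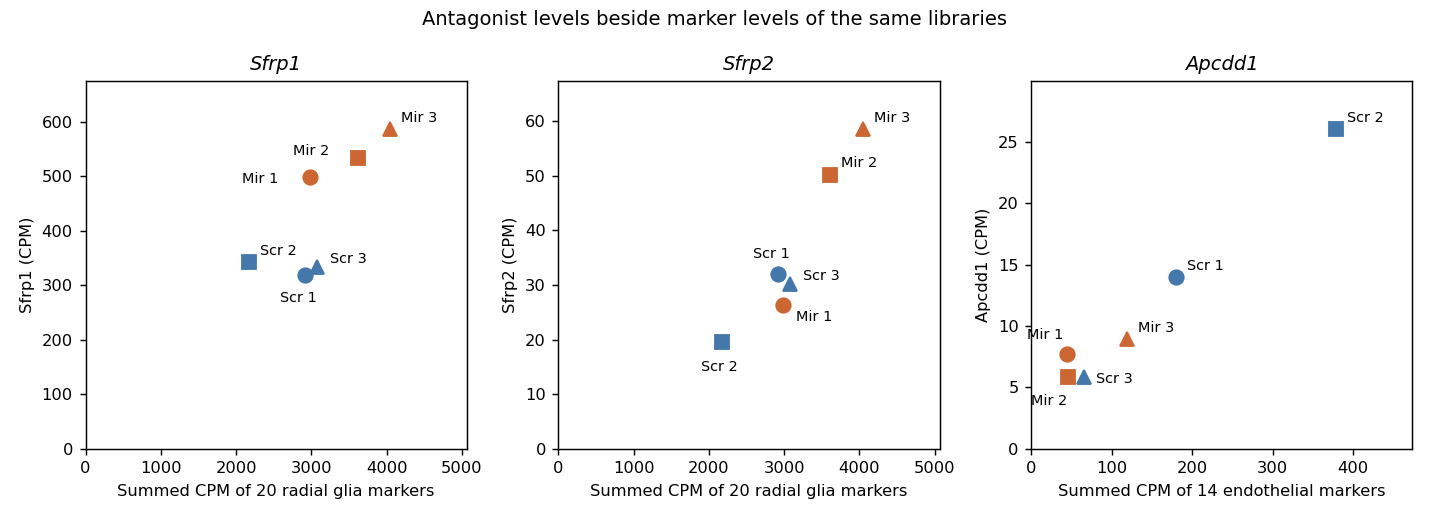
CPM of Sfrp1, Sfrp2 and Apcdd1 in each library (vertical axes) against the summed CPM of 20 radial glia markers or 14 endothelial markers of the same library (horizontal axes); blue is Scr and orange is Mir. Mir 1 lies well above Scr 1 and Scr 3 for Sfrp1 at a like marker sum, but not for Sfrp2, and Apcdd1 is highest in the 2 Scr libraries with the most endothelial marker reads.

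Other genes of the pathway were also tested and none was called by edgeR over all genes. Of 28 further antagonists and feedback inhibitors, 27 matched a gene and 15 passed the filter, with 4 higher and 11 lower means and a median log2 fold change of -0.27. The lower ones included the secreted antagonists Sfrp4 (-0.29), Dkk2 (-0.84) and Igfbp4 (-0.27). The axon guidance and Wnt antagonist gene Draxin had the smallest p, at 29.6, 35.2 and 38.0 CPM in Scr and 16.5, 20.3 and 19.9 CPM in Mir, with no overlap and a log2 fold change of -0.86 ± 0.15 (edgeR adjusted p 0.168). The Dishevelled-binding genes Dact3 and Dact1 were at 0.50 ± 0.20 and -1.15 ± 0.52, and Amer1, which binds APC and β-catenin, was at -0.27 ± 0.14. Dact1 was highest in Scr replicate 2, at 70.3 CPM against 13.8 to 23.6 CPM in the other 5 libraries.

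Among the proteins that the antagonists act on, 7 of 25 ligand and R-spondin genes passed the filter, 2 with higher and 5 with lower means and a median of -0.43. Rspo3, whose product shields Frizzled receptors from ZNRF3 and RNF43, was at 22.3, 31.4 and 37.2 CPM in Scr and at 8.20, 5.49 and 15.1 CPM in Mir, a log2 fold change of -1.66 ± 0.37 (edgeR adjusted p 0.204). Wls, needed for Wnt secretion, was at -1.23 ± 0.44, and the ligand genes Wnt5b and Wnt5a were at 0.53 ± 0.20 and -1.35 ± 0.60. Of 18 receptor and co-receptor genes 13 passed, 8 with higher and 5 with lower means and a median of 0.18. The Frizzled genes Fzd3, Fzd8, Fzd6 and Fzd1 were at -0.63 ± 0.08, 0.96 ± 0.14, -1.62 ± 0.59 and 0.41 ± 0.17, and of these Fzd3 and Fzd8 did not overlap between groups. All 19 genes of the destruction complex and nuclear factors passed, 8 with higher and 11 with lower means and a median of -0.05. Axin1, Ctnnb1 (β-catenin), Pygo2 and Apc had the smallest p in that list, at 0.61 ± 0.12, 0.28 ± 0.06, 0.34 ± 0.08 and -0.51 ± 0.11. These genes did not overlap between groups either, nor did Rspo3, Wnt5b and Amer1. All Mir values lay above Scr for 1 of 7 ligand, 3 of 13 receptor and 5 of 19 destruction complex and nuclear genes, beside 9.72% of all genes tested. They lay all below for 1, 1 and 3 of these, beside 10.3%. For the 15 tested genes among the other antagonists and feedback inhibitors, these counts were 0 above and 2 below.

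**Figure D4:**
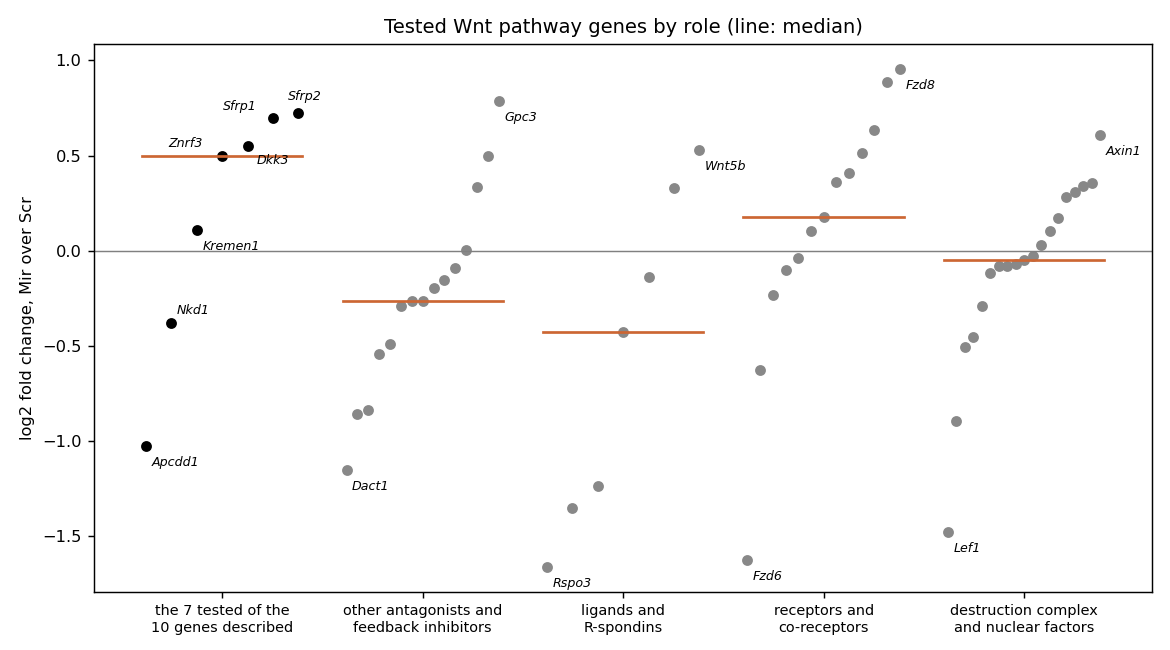
Log2 fold changes, Mir over Scr, of all tested genes of 5 Wnt lists, sorted within each list, with the median as a line; the 7 tested antagonists are named, and elsewhere the lowest and highest gene. Medians are 0.50 for the 7 antagonists, -0.27 for the other antagonists and feedback inhibitors, -0.43 for ligands and R-spondins, 0.18 for receptors and -0.05 for the destruction complex and nuclear factors.

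The genes most like Sfrp1 across the 6 libraries were taken as those with the smallest root mean square difference in centred log2 (CPM + 0.5). They were Gtse1 (0.07), B9d1 (0.08), Racgap1 (0.08), Stk11ip (0.08) and Cnnm4 (0.09), where each value is that difference in log2 units. Their log2 fold changes were 0.77 ± 0.14, 0.62 ± 0.14, 0.69 ± 0.08, 0.79 ± 0.17 and 0.57 ± 0.18, with edgeR adjusted p of 0.159 to 0.252. Because these genes were chosen for their likeness to Sfrp1 in the same libraries, higher levels in Mir follow from the choice. Racgap1, the most abundant of the 5 in CPM, was at 245, 227 and 254 CPM in Scr and at 385, 371 and 415 CPM in Mir. Its lack of overlap likewise follows from the choice and is no separate result.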

How the data were processed

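Per the labels' protocols, RNA (integrity number over 9.5) went into SMART-seq v4 libraries sequenced as 50 bp single reads. The authors deposited raw read counts per gene for each library. The submitters' processing notes name HISAT2 2.1.0, HTSeq 0.11.0, DESeq2 1.18.1 and mm10 (GRCm38); for the annotation and strand setting nothing is stated in those sources. Of the reads listed per library, 21.9 to 23.6% were in genes, 28.8 to 31.6% in no feature, 0.357 to 0.376% ambiguous, 4.48 to 5.48% not aligned and 39.3 to 44.4% not uniquely aligned; these 5 summary lines were left out of library sizes and tests.

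Symbols, positions, exon lengths and 3′ UTRs (transcript with the longest coding sequence) came from GENCODE M21 on GRCm38, which named 54079 of 54146 genes. Mir was tested against Scr in edgeR 4.0.16 (R 4.3.3) with the quasi-likelihood F test, two-sided, TMM normalization (factors 0.992 to 1.01), the filterByExpr filter (16897 genes kept) and Benjamini-Hochberg adjustment over all genes tested, with a threshold of 0.05. Fold changes are given ± SE from the F statistic. The biological coefficient of variation was 23.6%. DESeq2 1.42.0 and limma-voom (limma 3.58.1), other filters and normalization, a replicate block, an endothelial covariate and leaving out each library were the alternatives. The p-values set the difference between the groups against the spread between embryo pools, which may be technical. Reads were amplified without molecular identifiers, so counting limits cover counting error only.

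The genes named are the 10 antagonists and the 4 genes of smallest p in each other Wnt list. Also named are the 5 genes most like Sfrp1 and the 3 most abundant markers of a list. Cldn5, the lowest and highest genes drawn in the plot of Wnt lists, Gm26771, Sfrp4, Dkk2 and Igfbp4 were named after their values were seen. The genes and lists were chosen with earlier results of these data known.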

Additional observations from a re-analysis of the deposited data

How the results depend on the processing

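The direction of the fold change held in 94 of 98 refits of the 7 tested antagonists (13 alternatives planned and 1 added after seeing the data). The exceptions were Apcdd1 with the endothelial covariate (0.17) and Kremen1 without Scr replicate 3 (-0.063), Mir replicate 1 (-0.0075) or Mir replicate 3 (-0.064); over the 6 fits without 1 library Kremen1 ran from -0.064 to 0.37. The number of antagonists called was 1 (Sfrp1) by DESeq2 and 1 (Sfrp1) with no filter on low counts, and 0 under every other alternative run. Over all genes, DESeq2 called 534 genes (211 higher, 323 lower), edgeR with no filter 31, limma-voom 0, the fit with the replicate block 0 and the fit without Scr replicate 2 and Mir replicate 3 called 29, against 1 in the fit reported; leaving out 1 library gave 0 to 2. The replicate numbers were not shown to pair the pools: correlations of deviations between equally numbered pools were 0.25, -0.15 and -0.09, and the replicate block left Sfrp1 at 0.70 on the log2 scale (edgeR adjusted p 0.265). The count of antagonists with no overlap in either direction was 3 of 7, beside 20.0% of all genes tested, and 3 to 4 with 1 library left out, beside 26.2 to 37.7% of all genes. Counting error was at most 10.7% of a library's value for any tested antagonist. Apcdd1 and Kremen1 reached 10.5% and 9.62%, both in Mir replicate 2 (91 and 108 reads). For Znrf3 and Dkk3 the largest counting errors were 10.7% and 8.22%, both in Scr replicate 2 (88 and 148 reads). Their Mir libraries had more reads (at least 172 and 261), so counting error was smaller there. The coefficient of variation between Mir libraries was 3.29% for Znrf3, below counting error, and 9.05% for Dkk3, above it.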
